A study of Mus musculus with 6 samples.

Results

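The transcripts of 39 mouse genes that build clathrin-coated vesicles, pinch them off and sort or recycle their receptor cargo were followed in ovaries of mice carrying a Dennd1a transgene and of wild-type mice. The genes were chosen by name for their known roles (clathrin, AP2, dynamin, EHD, arrestin, sorting nexin and retromer genes and their partners), and all 39 were found among the 18280 genes of the deposited table. The transgenic group (TG, genotype label Dennd1aTG) and the wild-type group (WT) held 3 ovary samples each, from 3 animals of each genotype. All 6 animals were given PMSG, the equine gonadotropin that acts like FSH and makes follicles grow, and their ovaries were collected 44 h later. The promoter and cell type that drive the transgene, the strain and the age of the mice are not given in the sources used here. Whole ovaries were sequenced, so fewer cells of a type and less RNA per cell cannot be told apart.

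Clathrin triskelia, made of heavy and light chains, form a lattice on the inner face of the plasma membrane, and the AP2 complex links that lattice to the cytoplasmic tails of receptors. Dynamin severs the neck of the coated pit, and the vesicle then joins early endosomes, from which receptors are returned to the surface by EHD proteins, sorting nexins and retromer or passed on for degradation. DENND1A, the product of the transgene, binds AP2 and clathrin and activates the small GTPase Rab35 on this route, and FSHR, the FSH receptor of granulosa cells, is among the receptors that cells take up and recycle. The series is titled for an effect of DENND1A on the transport of FSHR inside granulosa cells, and the comparison asks whether the transcripts of the transport machinery itself differed between the genotypes.

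Estimated counts summed to between 17075484 and 18516171 per library. Dennd1a, which checks the labels, measured 570, 582 and 588 counts-per-million (CPM, scaled by effective library size) in TG replicates 1 to 3, against 44.6, 39.5 and 49.3 CPM in WT replicates 1 to 3. The libraries carried the ovarian markers looked for, with 7 of 7 granulosa and 7 of 7 oocyte genes having enough counts to be tested. TG replicate 2 and WT replicate 3 stood apart in some markers of adjoining tissue. The 6 adipocyte markers summed to 529 CPM in TG replicate 2, against at most 360 CPM in the other libraries. Plin4 gave much of these sums, with 358 CPM in TG replicate 2 and 345 CPM in WT replicate 2. Cfd had 86.8 CPM in TG replicate 2 and Adipoq 14.1 CPM. WT replicate 3 came next for both, at 9.45 and 1.53 CPM. Plin1 did not set TG replicate 2 apart. It had 18.8, 20.8 and 19.2 CPM in TG replicates 1 to 3, against 14.1, 10.9 and 16.9 CPM in WT replicates 1 to 3. Every TG library was thus above every WT library for Plin1. The 5 oviduct markers summed to 43.0 CPM in WT replicate 3 and to at most 7.33 CPM elsewhere. Ovgp1 alone gave 40.9 CPM of that sum. Foxj1, Pax8, Dnah5 and Ccdc39 had 0.294, 0.705, 0.176 and 0.940 CPM in WT replicate 3, and Foxj1 was higher in TG replicate 2, at 0.459 CPM. The 6 smooth muscle markers summed to 2043 CPM in WT replicate 3 and to at most 1532 CPM elsewhere.

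The 39 genes spanned a wide range of levels in the ovary, and the order was led by a clathrin light chain and the sigma and mu subunits of AP2. On the deposited per-length scale (FPKM), the highest mean over the 6 libraries was 167 FPKM for Clta, the clathrin light chain a, followed by 158 FPKM for Ap2s1 and 146 FPKM for Ap2m1, the sigma and mu subunits of AP2. The lowest was 0.432 FPKM for Amph, an amphiphysin best known from nerve terminals. Of the 39 genes, 29 had a mean of at least 10 FPKM (74.4%), against 50.8% of the 14124 genes tested, and their median was 30.5 FPKM against 10.4 FPKM for all genes tested. The genes below 5 FPKM were Dnm1 and Dnm3, the dynamins of nerve cells, the phosphoinositide phosphatase Synj1, the endosome tether Eea1 and Amph.

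The other genes fell between these ends. In the coat, Picalm had 72.3 FPKM, Cltc 69.5, Ap2b1 51.9, Ap2a1 30.5, Cltb 29.0 and Ap2a2 21.3 FPKM. Of the scission and accessory genes, Epn1 had 74.6 FPKM, Snx9 57.9, Sh3gl1 37.7, Eps15 25.5, Itsn1 22.5, Epn2 20.6, Itsn2 9.41 and Synj1 4.10 FPKM. The adaptor genes Epn1 and Picalm were thus near the level of the heavy chain gene. Of the sorting genes, the retromer subunits Vps29, Vps35 and Vps26a had 60.5, 59.7 and 45.4 FPKM and Snx27 14.7 FPKM. Hgs had 29.0 FPKM, Appl2 32.1, Appl1 8.96, Micall1 7.0 and Eea1 4.61 FPKM, and the beta-arrestins Arrb2 and Arrb1 had 13.6 and 8.99 FPKM. These 3 retromer genes, whose products form one complex, thus lay close together. Vps26b, the paralogue of Vps26a and one of the other pathway genes read below, was lower, at 17.7 FPKM. The genes of the AP2 complex spread from 21.3 to 158 FPKM, and the lowest, Ap2a2, shares the alpha subunit role with Ap2a1. The spread within each complex thus depends on which paralogues are counted, and the complexes were not compared.

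**Figure D1:**
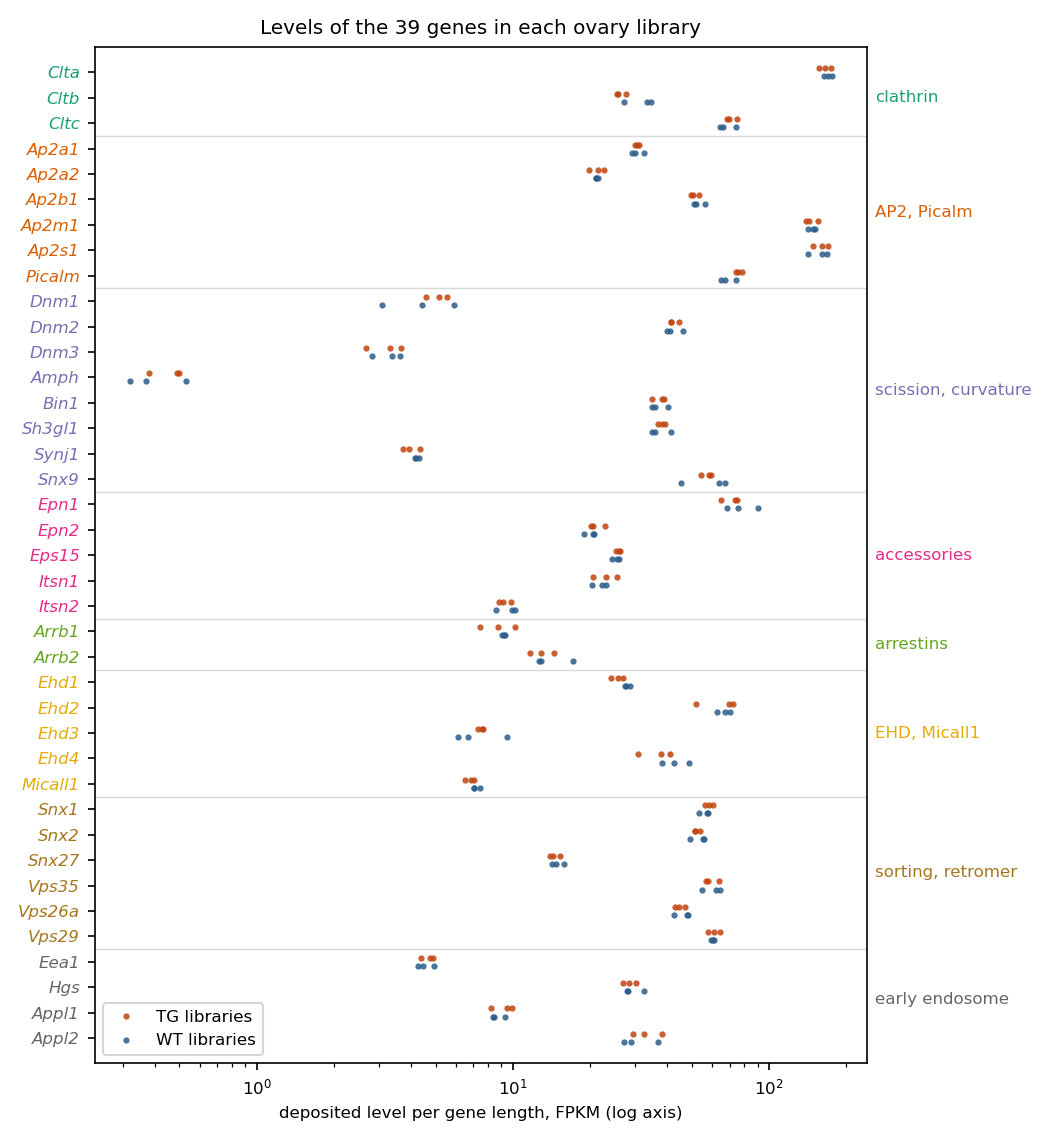
Deposited level per gene length (FPKM, log axis) of each of the 39 genes, grouped by role, with 1 point per library and the TG libraries above the WT libraries in each row. Levels run from 0.432 FPKM for Amph to 167 FPKM for Clta (means of 6 libraries), while the TG and WT points of a gene lie close together.

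Where the machinery has paralogues, a single gene carried most of the family's transcripts in many families. Dnm2, the dynamin of most tissues, had 42.3 FPKM, Dnm1 4.77 FPKM and Dnm3 3.24 FPKM, and Dnm2 exceeded Dnm1 by between 7.45-fold and 13.2-fold in the 6 libraries. Clta exceeded Cltb, the second light chain, by between 4.71-fold and 6.74-fold. Bin1, the widely expressed amphiphysin, had 37.2 FPKM, and it exceeded Amph by between 66.0-fold and 112-fold. Among the EHD ATPases the order Ehd2, Ehd4, Ehd1, Ehd3 held in 6 of 6 libraries, with means of 65.6, 39.8, 26.7 and 7.45 FPKM. Arrb2 exceeded Arrb1, the other beta-arrestin, in 6 of 6 libraries by between 1.26-fold and 1.84-fold per length, although Arrb1 had the higher CPM, which is not divided by length. The retromer-associated sorting nexins Snx1 and Snx2 had means of 57.1 and 52.6 FPKM, and Snx1 was higher in 5 of 6 libraries, so their ranges overlapped.

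The region around the start of transcription (250 bases before to 50 after) was available from RefSeq on GRCm38.p6 for 30 of the 39 genes, with 35 start sites. These regions held a median of 27.0 CG pairs, against 19.0 over the 14317 start sites of tested genes. They were searched on both strands for TGACGTCA, the full cAMP response element, because FSH acts on granulosa cells through cAMP, and for a pair of GAAA runs with any 2 bases between them, the core of the interferon-stimulated response element, because interferon-responsive genes differed between these libraries. TGACGTCA occurred at 2 of 35 start sites (5.71%), against 2.77% of the start sites of tested genes, and the GAAA pair at 2 of 35 (5.71%), against 3.16%. The 4 matches are shown with 10 bases on each side, on the strand of the gene, with the matched letters in capitals.
Cltb (chr13:54611377-54611404, minus strand): cctcggccgcTGACGTCAccgcattccc
Ap2b1 (chr11:83302640-83302667, plus strand): cgcacccagaTGACGTCAggcggcgaga
Vps26a (chr10:62487019-62487048, minus strand): tttccctaggGAAAAGGAAAtgggcgtgcc
Hgs (chr11:120467630-120467659, plus strand): tgcgcgagcaGAAAAAGAAAggcggaagcg
The match begins 21 bases before the start site in Cltb and 47 bases before it in Ap2b1, 233 bases before it in Vps26a and 5 bases after it in Hgs. A match is a description of these letters, and no binding was measured.

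No gene of the clathrin and recycling machinery differed between TG and WT ovaries at an adjusted p under 0.05. The log2 fold changes (TG over WT) ran from -0.25 for Ehd4 to 0.18 for Amph, with a median of -0.01, against a median of 0.00 over all genes tested, and 21 of the 39 were below 0. In edgeR's quasi-likelihood test with Benjamini-Hochberg adjustment over all 14124 genes the adjusted p of every member was 0.9997, and 0 of 39 were called, against 1.05% of all genes tested. Before adjustment 0 of 39 had p under 0.05 in edgeR, against 4.08% of all genes tested. DESeq2 and limma-voom likewise called 0 of 39, with 0 of 39 under 0.05 before adjustment. TG and WT ranges were separate for 2 of the 39 genes, Picalm and Ehd1, against 8.25% of all genes tested. For Ehd1 all TG libraries lay below all WT libraries, which held for 5.04% of all genes tested. For Picalm all TG libraries lay above, which held for 3.21%.

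The intervals show what size of difference these 6 libraries could still hold. The 95% interval of the fold change lay within 1.5-fold in either direction, which is 0.58 on the log2 scale, for 37 of the 39 genes (94.9%). Among the 8444 tested genes of similar count level the share was 94.8%. The exceptions were Dnm1, with an interval of -0.28 to 0.64, and Amph, with an interval of -0.48 to 0.84, and both stayed within 2-fold. Differences inside these intervals could not be told from the spread between the samples.

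**Figure D2:**
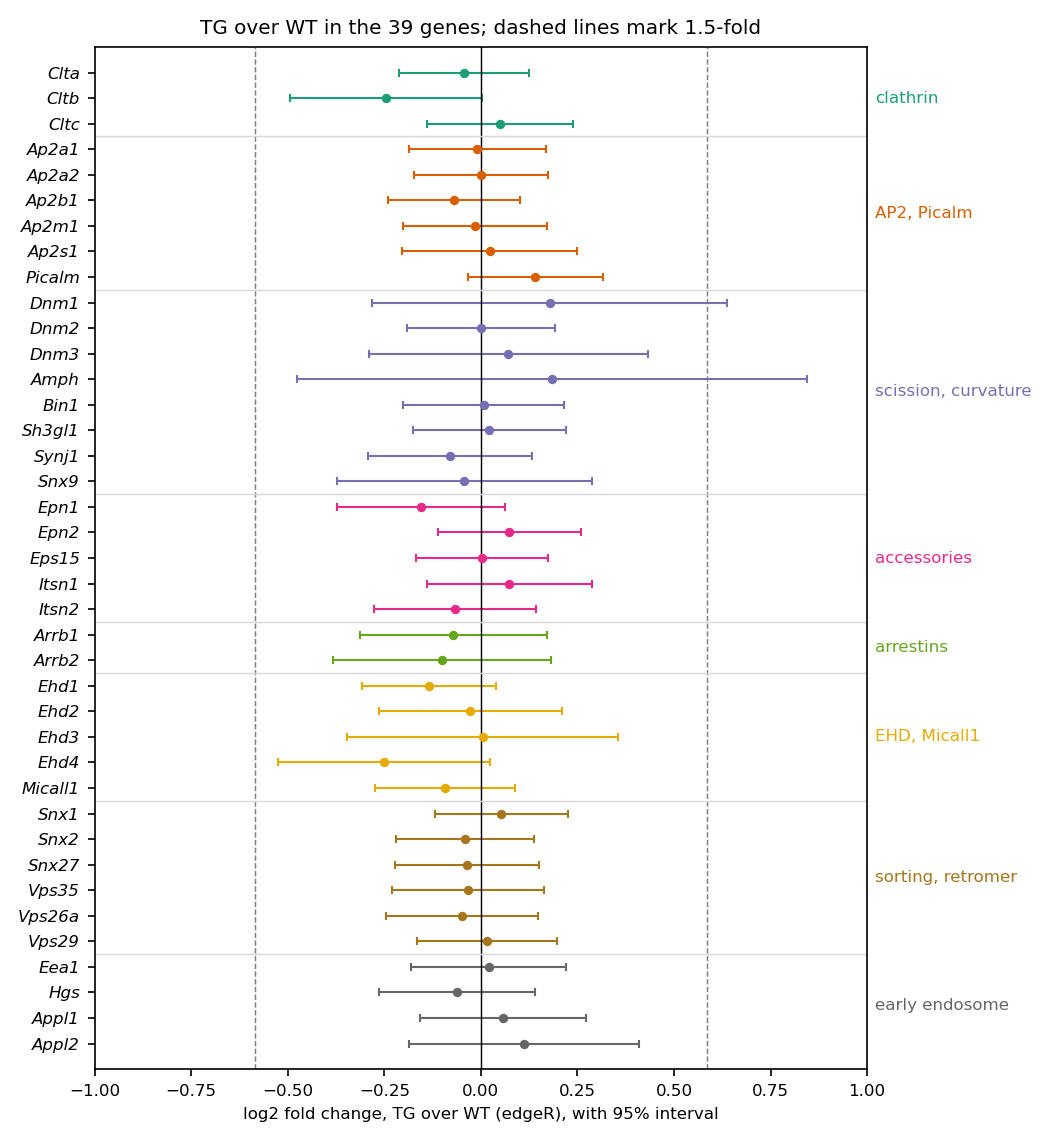
Log2 fold change, TG over WT, of each of the 39 genes with its 95% interval from edgeR, grouped by role, with dashed lines at 1.5-fold. All 39 intervals include 0, and those of Dnm1 and Amph cross the upper dashed line.

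In the coat itself the second light chain gave the smallest p of the 39 genes. Cltb (Entrez gene 74325, chromosome 13, 54592386 to 54611373 on GRCm38) measured 32.9, 36.9 and 33.4 CPM in TG replicates 1 to 3, against 34.8, 43.4 and 44.0 CPM in WT replicates 1 to 3. WT replicate 1 lay among the TG libraries, so the groups overlapped, while WT replicates 2 and 3 were above all TG libraries. On average it had 34.4 ± 2.22 CPM over the TG ovaries and 40.7 ± 5.15 CPM over the WT ovaries (SD, n = 3 each). The log2 fold change was -0.24, with a 95% interval of -0.49 to 0.00 (SE 0.11), and the unadjusted p in edgeR was 0.0532. Without WT replicate 1 the log2 fold change of Cltb was -0.35 (adjusted p = 0.505 in edgeR, the lowest adjusted p of the 39 genes under any alternative run). Clta, the more abundant light chain, measured 155, 144 and 150 CPM in TG replicates 1 to 3, against 153, 161 and 150 CPM in WT replicates 1 to 3, and its log2 fold change was -0.04 (SE 0.07). The groups of Clta overlapped. The heavy chain gene Cltc measured 425 ± 17.3 CPM over the TG ovaries and 411 ± 29.7 CPM over the WT ovaries (SD, n = 3 each), and its 95% interval of -0.14 to 0.24 around a log2 fold change of 0.05 spans 0.

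The AP2 complex, which binds both clathrin and receptor tails, had log2 fold changes between -0.07 and 0.02 over its 5 subunit genes, and none was called. The alpha subunit genes Ap2a1 and Ap2a2 had log2 fold changes of -0.01 and 0.00, the mu subunit gene Ap2m1 -0.02, the sigma subunit gene Ap2s1 0.02 and the beta subunit gene Ap2b1 -0.07. Ap2s1, the most abundant per length, measured 91.5, 109 and 102 CPM in TG replicates 1 to 3, against 88.3, 102 and 107 CPM in WT replicates 1 to 3, and the groups overlapped. Picalm encodes CALM, an adaptor that senses membrane curvature and brings SNARE proteins into coated pits. It measured 281, 275 and 275 CPM in TG replicates 1 to 3, against 268, 239 and 246 CPM in WT replicates 1 to 3. Every TG library was above every WT library, by a small margin over WT replicate 1. On average it had 277 ± 3.44 CPM over the TG ovaries and 251 ± 15.2 CPM over the WT ovaries (SD, n = 3 each). The log2 fold change was 0.14, with a 95% interval of -0.03 to 0.32 (SE 0.08, adjusted p = 0.9997 in edgeR).

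None of the 8 scission and curvature genes was called, and the widest intervals of this role were those of Dnm1 and Amph. Dnm2 measured 137 ± 6.13 CPM over the TG ovaries and 137 ± 10.8 CPM over the WT ovaries (SD, n = 3 each), so that the log2 fold change was 0.00 (95% interval -0.19 to 0.19). Dnm1 measured 19.9, 16.8 and 18.6 CPM in TG replicates 1 to 3, against 16.0, 11.4 and 21.6 CPM in WT replicates 1 to 3. The WT libraries of Dnm1 enclosed all TG libraries, and WT replicate 2 was the lowest of the 6. Its log2 fold change was 0.18 (SE 0.20), and it was 0.43 without WT replicate 3 (adjusted p = 0.883 in edgeR) and 0.49 with TG replicate 2 also left out (adjusted p = 0.657). Dnm3 and Amph had log2 fold changes of 0.07 and 0.18, Amph at a mean of 1.43 CPM.

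Snx9, a sorting nexin that binds dynamin and shapes the neck of the pit, measured 158, 177 and 175 CPM in TG replicates 1 to 3, against 191, 203 and 132 CPM in WT replicates 1 to 3. WT replicate 3 was the lowest of all libraries and WT replicates 1 and 2 the highest, so the WT group enclosed the TG group. The log2 fold change was -0.04 (SE 0.15), and without WT replicate 3 it was -0.21 (adjusted p = 0.885 in edgeR). WT replicate 3 is also the library with the highest smooth muscle sum and the highest oviduct sum, the latter mostly from Ovgp1. The part of these in the Snx9 level was not tested. Bin1, the endophilin gene Sh3gl1 and Synj1 had log2 fold changes of 0.01, 0.02 and -0.08.

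Of the accessory proteins that gather cargo and scaffold the pit, none separated the genotypes. Epn1, a ubiquitin-binding epsin and the most abundant of these genes, measured 148, 162 and 166 CPM in TG replicates 1 to 3, against 159, 175 and 196 CPM in WT replicates 1 to 3. The groups overlapped, with WT replicate 3 the highest library. On average it had 159 ± 9.47 CPM over the TG ovaries and 176 ± 18.8 CPM over the WT ovaries (SD, n = 3 each). The log2 fold change was -0.15, with a 95% interval of -0.37 to 0.06 (SE 0.10). Epn2 had 0.07, the endocytic scaffold Eps15 0.00, and the intersectins Itsn1 and Itsn2, which tie the pit to actin, 0.07 and -0.07.

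The beta-arrestins uncouple activated receptors from G proteins and carry them to clathrin. Arrb2 measured 21.5, 20.7 and 23.4 CPM in TG replicates 1 to 3, against 21.2, 21.7 and 27.5 CPM in WT replicates 1 to 3, and WT replicate 3 alone was high. With an SE of 0.12, its log2 fold change was -0.10 and the 95% interval -0.38 to 0.18. Arrb1 measured 69.6, 52.0 and 60.1 CPM in TG replicates 1 to 3, against 63.5, 63.3 and 64.4 CPM in WT replicates 1 to 3, and the TG libraries spread around the tight WT group. Its log2 fold change was -0.07 (SE 0.11).

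The EHD ATPases and their partner Micall1 act on the recycling step, and MICALL1 is also an effector of Rab35, the GTPase that DENND1A activates. Ehd4, an EHD of early endosomes, had the lowest log2 fold change of the 39 genes, at -0.25, with a 95% interval of -0.52 to 0.02 (SE 0.12, adjusted p = 0.9997 in edgeR). It measured 129, 98.7 and 120 CPM in TG replicates 1 to 3, against 135, 156 and 122 CPM in WT replicates 1 to 3. TG replicate 1 lay above WT replicate 3, so the groups overlapped, and TG replicate 2 was the lowest and WT replicate 2 the highest library. Ehd1, which drives return of receptors from the recycling compartment, measured 75.9, 73.2 and 80.7 CPM in TG replicates 1 to 3, against 82.2, 83.6 and 86.5 CPM in WT replicates 1 to 3. Every TG library was below every WT library, with averages of 76.6 ± 3.76 CPM over the TG ovaries and 84.1 ± 2.20 CPM over the WT ovaries (SD, n = 3 each). The log2 fold change of Ehd1 was -0.13, with a 95% interval of -0.31 to 0.04 (SE 0.08).

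Ehd2, which is known for stabilising caveolae, was the most abundant EHD gene and measured 264, 211 and 269 CPM in TG replicates 1 to 3, against 237, 262 and 260 CPM in WT replicates 1 to 3. TG replicate 2 was the lowest library and the groups overlapped, with a log2 fold change of -0.03 (SE 0.11). TG replicate 2 also had the lowest summed CPM of the 10 endothelial markers, 682 CPM, against 785 to 1058 CPM in the other libraries, and its part in the Ehd2 level was not tested. Ehd3 had 0.00 and Micall1 -0.09 (95% interval -0.27 to 0.09), and Micall1 measured 41.4 ± 1.79 CPM over the TG ovaries and 44.1 ± 1.35 CPM over the WT ovaries (SD, n = 3 each).

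Sorting nexins and retromer, which retrieve cargo from endosomes, had log2 fold changes between -0.05 and 0.05 over 6 genes. With Picalm counted in the AP2 role, this was the narrowest range among the roles with 5 or more genes. The 5 AP2 subunit genes alone had a slightly narrower range, from -0.07 to 0.02. Snx1 measured 113, 113 and 107 CPM in TG replicates 1 to 3, against 101, 111 and 110 CPM in WT replicates 1 to 3, a log2 fold change of 0.05 (SE 0.08). The groups overlapped, with WT replicate 1 the lowest. The retromer gene Vps29, the most abundant of this group per length, measured 56.6, 58.4 and 63.5 CPM in TG replicates 1 to 3, against 58.7, 60.1 and 57.5 CPM in WT replicates 1 to 3, and the groups overlapped. The other retromer genes Vps35 and Vps26a had log2 fold changes of -0.03 and -0.05, Snx27, which couples PDZ-binding receptors to retromer, -0.03, and Snx2 -0.04.

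On the early endosome, APPL1 marks a compartment on which gonadotropin receptors have been found before they recycle. Appl1 measured 61.7 ± 5.85 CPM over the TG ovaries and 59.2 ± 3.59 CPM over the WT ovaries (SD, n = 3 each), a log2 difference of 0.06 (95% interval -0.16 to 0.27). Appl2, its more abundant paralogue, measured 79.4, 89.8 and 104 CPM in TG replicates 1 to 3, against 78.8, 74.6 and 99.5 CPM in WT replicates 1 to 3. TG replicate 3 and WT replicate 3 were the high libraries, and the log2 fold change was 0.11 (SE 0.13). Eea1, the tether for homotypic fusion, had 0.02, and Hgs, which hands ubiquitinated receptors to the degradative route, had -0.06. Of the 4 genes shown above with motif letters at the start site, Ap2b1, Vps26a and Hgs thus had log2 fold changes between -0.07 and -0.05, and Cltb had -0.24.

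**Figure D3:**
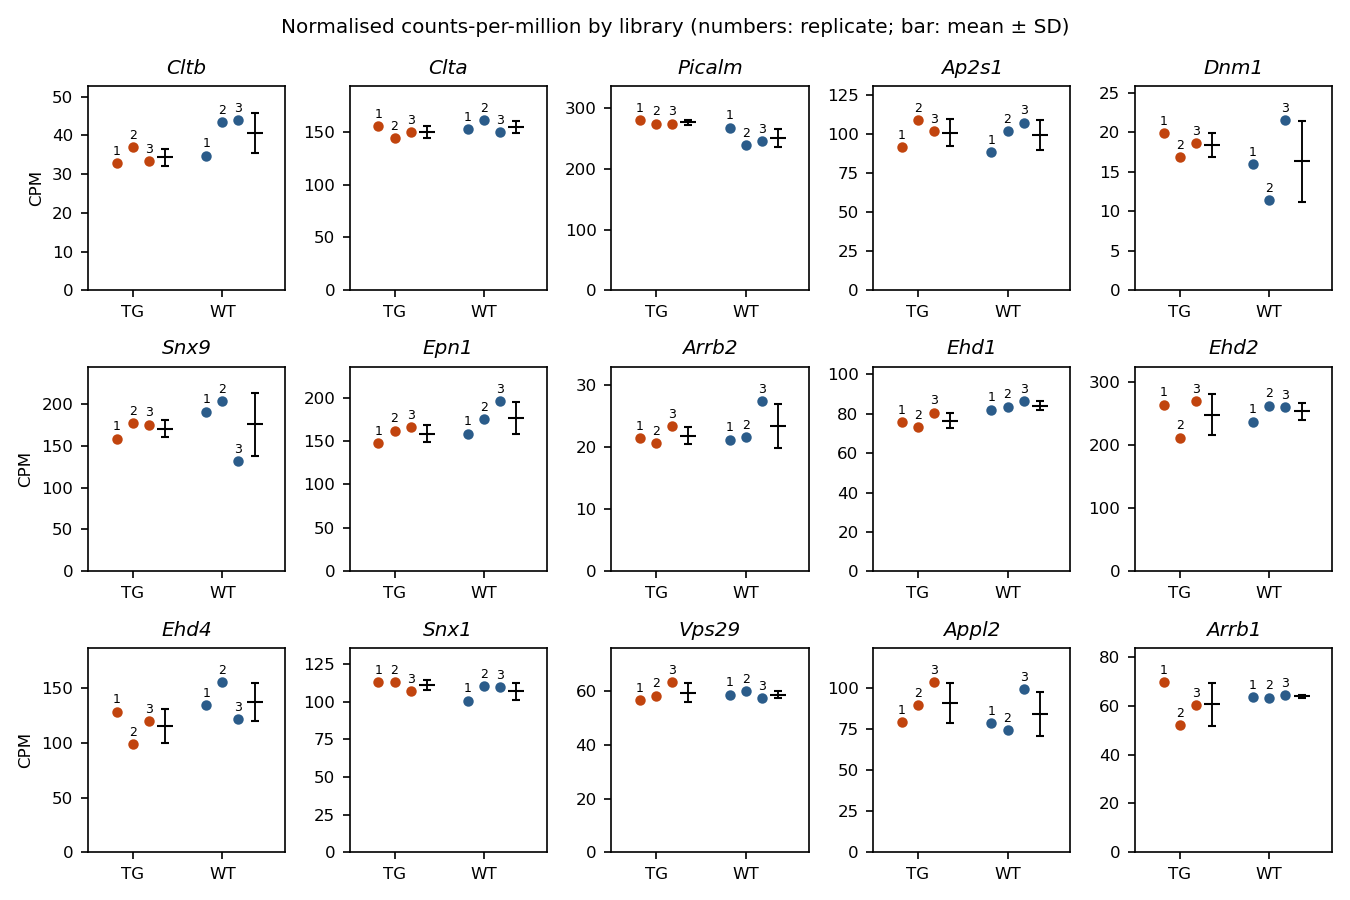
Normalised CPM (linear axes from 0) of 15 of the 39 genes, with a point per library labelled by replicate number, the TG group left of the WT group and the mean ± SD beside each group. Of these genes only Picalm and Ehd1 separate the groups, and WT replicate 3 is low for Snx9 while TG replicate 2 is low for Ehd2 and Ehd4.

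No paralogue's share of its family separated the genotypes. Each gene's share of its family's summed FPKM was compared for 15 shares in 10 families, by a two-sided exact permutation test over 20 arrangements, which cannot give a p below 0.1. The lowest p was 0.2, for the shares of Clta, Ehd2 and Ehd4, and the lowest after Benjamini-Hochberg adjustment over the 15 shares was 0.75. Clta made up 86.2% ± 1.11 of light chain FPKM in TG and 84.2% ± 1.83 in WT (SD, n = 3 each). Ehd4 made up 27.3% ± 0.702 of EHD FPKM in TG and 29.6% ± 2.09 in WT. Dnm2 made up 83.6% ± 1.69 of dynamin FPKM in TG and 84.6% ± 2.40 in WT. The TG and WT ranges overlapped for all 15 shares, and the largest difference of means was -2.51 percentage points (TG minus WT), for Epn1 in the epsins.

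**Figure D4:**
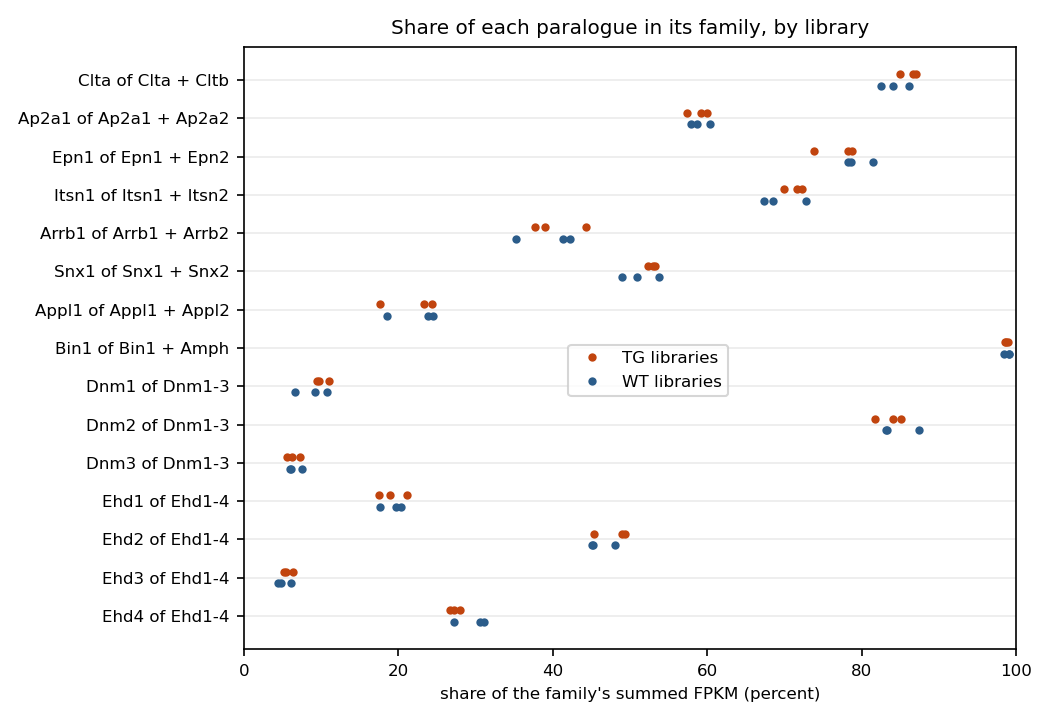
Share of each gene in the summed FPKM of its family (percent), with a point per library and the TG libraries above the WT libraries in each row. The TG and WT ranges overlap in all 15 rows, and Bin1 (98.8% in TG and 98.9% in WT) and Clta (86.2% in TG and 84.2% in WT) dominate their families.

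A further 97 genes of coat nucleation, uncoating, endosomal sorting, recycling and receptor cargo, listed by known role, were read from the same fit. In edgeR 0 of 97 were called, and before adjustment 0 of 97 had p under 0.05. The count of calls was also 0 in DESeq2 and in limma-voom. The median log2 fold change was -0.01, 52 of the 97 were below 0, and the groups did not overlap for 8 (8.25%), the same share as among all genes tested. The log2 fold changes ran from -0.36 to 0.73, a wider range than that of the 39 genes. The 95% interval lay within 1.5-fold for 86 of the 97 (88.7%), against 74.5% of all genes tested. It lay within 2-fold for 92 (94.8%), against 89.6%. The smallest p were those of Gak, the kinase that helps uncoat clathrin in most tissues, at -0.15 (SE 0.08), the endophilin gene Sh3gl2 at 0.40 (SE 0.23), the sorting nexin gene Snx12 at 0.13 (SE 0.08) and the adaptor gene Necap1 at -0.14 (SE 0.09). Gak measured 97.4, 83.7 and 92.2 CPM in TG replicates 1 to 3, against 102, 99.0 and 102 CPM in WT replicates 1 to 3, and every TG library was below every WT library. Snx12 measured 40.5, 41.8 and 41.9 CPM in TG replicates 1 to 3, against 38.9, 37.6 and 36.9 CPM in WT replicates 1 to 3, and every TG library was above. Sh3gl2 measured 10.6, 8.79 and 12.3 CPM in TG replicates 1 to 3, against 11, 6.46 and 6.58 CPM in WT replicates 1 to 3, with overlap. Necap1 measured 48.9, 51.9 and 51.0 CPM in TG replicates 1 to 3, against 54.3, 60.7 and 52.3 CPM in WT replicates 1 to 3, without overlap.

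The receptors that ride in the coat were part of this list or of the granulosa markers. Lrp1, a large scavenging receptor, had a log2 fold change of 0.10, the transferrin receptor gene Tfrc 0.02 and the insulin receptor gene Insr -0.02, and none of these was called in edgeR. Fshr itself measured 61.5, 55.4 and 48.2 CPM in TG replicates 1 to 3, against 49.4, 53.3 and 49.7 CPM in WT replicates 1 to 3. Its groups overlapped, and the log2 fold change was 0.12, with a 95% interval of -0.11 to 0.34 (SE 0.10).

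The same libraries did differ in other genes, and these values stand beside those of the trafficking genes. All 16 tested genes of an interferon-response list were called lower in TG in edgeR, with log2 fold changes between -4.03 and -1.30 and a median of -3.05. Their summed CPM was 507 to 591 in TG, against 2054 to 3122 in WT. Of 18 macrophage and myeloid markers 18 had log2 fold changes below 0, with a median of -0.60, and 1, the protease gene Ctss, was called lower in edgeR. The sum of these markers was 436 to 476 CPM in TG, against 499 to 794 CPM in WT, without overlap and with none at 0. Of 5 erythrocyte markers 3 haemoglobin genes were called higher, with sums of 194 to 216 CPM in TG, against 119 to 134 CPM in WT. The granulosa markers summed to 5201 to 5898 CPM in TG, against 4725 to 6107 CPM in WT, and their groups overlapped. The lowest and highest libraries of Ehd4, TG replicate 2 and WT replicate 2, also had the lowest and highest endothelial marker sums, 682 and 1058 CPM. The part of macrophage, erythrocyte and endothelial RNA in the small differences of Cltb, Ehd1, Ehd4 and Picalm was not tested.

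**Figure D5:**
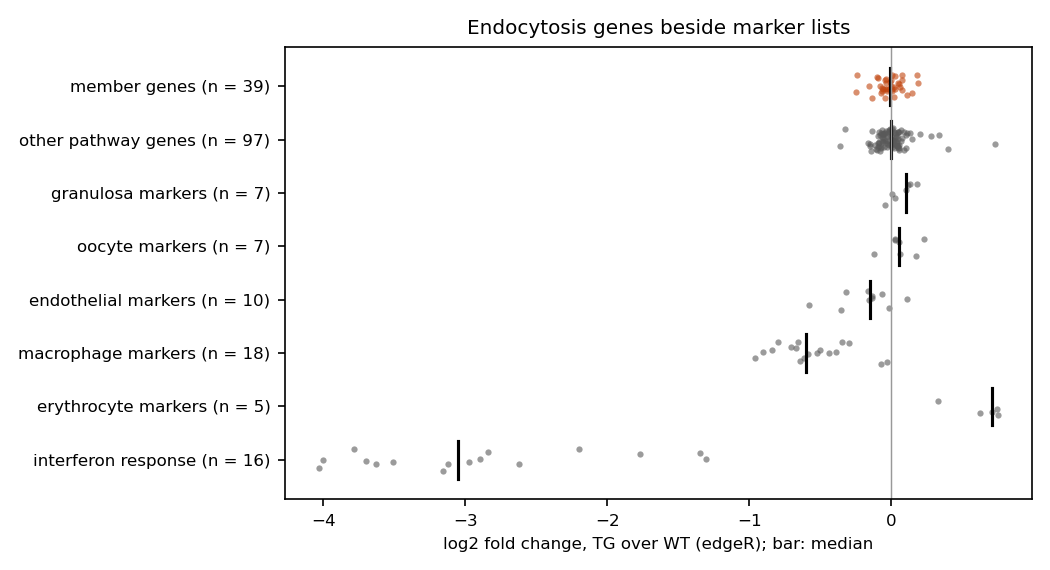
Log2 fold change, TG over WT (edgeR), of each tested gene in 8 lists, with a point per gene and a bar at the median. The 39 trafficking genes gather between -0.25 and 0.18, while interferon-response genes lie between -4.03 and -1.30 and all 18 macrophage markers lie below 0.

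Each library was the highest for some of the 39 genes and the lowest for others. TG replicate 2 had the highest CPM for 3 of the 39 genes and the lowest for 11, against 19.7% (highest) and 18% (lowest) of the 8444 tested genes of similar count level. WT replicate 3 had the highest CPM for 12 and the lowest for 8, against 19.8% and 26.1% of those genes. These shares were not tested. The summed CPM of the 39 genes was 4440, 4328 and 4384 in TG replicates 1 to 3, against 4409, 4470 and 4399 in WT replicates 1 to 3, and the groups overlapped. The median coefficient of variation between replicates was 5.76% in TG and 6.68% in WT for the 39 genes, against 6.96% in TG and 8.25% in WT for the 8444 tested genes of similar count level.

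The counts of 5 of the 39 genes, Ap2a1, Dnm2, Itsn2, Micall1 and Vps29, were not whole numbers in every library, as when reads that fit several places are divided, so these levels are less certain. On GRCm38 (GENCODE M21) 10 of the 39 genes share positions with a gene on the opposite strand that is also in the table. Itsn1 overlaps Atp5o, at a mean of 206 CPM, Sh3gl1 overlaps Mpnd, at 83.9 CPM, and Dnm1 overlaps Ciz1, at 72.8 CPM. The strandedness of the libraries is not given in the sources used here, so reads of such pairs cannot be told apart where the transcripts meet.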

How the data were processed

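Total RNA of 6 whole ovaries was read on a BGISEQ-500 (per the labels' protocols). Bowtie2, RSEM 1.3.1, DESeq2 1.4.5 and the build mm10 are listed, without roles, in the submitters' processing notes. The table deposited by the authors holds estimated counts per gene, per the file headers, and FPKM deposited by the authors, identified as such from the values because the header names no unit. The authors' group averages were not used.

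Rounded counts entered edgeR 4.0.16 under R 4.3.3 (TMM; filterByExpr, minimum count 10 and minimum total 15; quasi-likelihood fit; two-sided test of genotype; Benjamini-Hochberg adjustment over 14124 genes, threshold 0.05). Standard errors are |log2 fold change| / √F, and 95% intervals use the t distribution. TMM factors lay between 0.990 and 1.015 and the common biological coefficient of variation was 12.5%. The test was tried on simulated counts with known changes. Between replicates the chi-square per degree of freedom was 7.92 to 21.9, above sampling noise. The p-values set the genotype difference against the spread between these samples.

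Library values are given for members with an unadjusted p under 0.05 (of which there were 0), and for the most abundant member per length and the member with the smallest p in each of 8 roles, and for the 4 other pathway genes with the smallest p. Library values of Ehd1, Arrb1 and Fshr were added after they were seen, as were the other means and the cargo receptors named. The members and lists were chosen with earlier results of these data known. DESeq2 1.42.0 and limma 3.58.1 served as alternatives. Of the marker lists, Mx1 and Mx2 were not matched by name to a gene of the table, so they were not analysed here. The theca (5 genes, median log2 fold change 0.01), nerve cell (6 tested, 0.10), oocyte (7, 0.05), endothelial (10, -0.15), smooth muscle (6, -0.20), adipocyte (4 tested, 1.31) and oviduct (2 tested, -1.08) markers had 0 genes called in edgeR. The theca median hides Cyp17a1, which measured 466 to 707 CPM in TG, against 294 to 408 CPM in WT, without overlap. Its log2 fold change was 0.73 (SE 0.16, adjusted p = 0.115 in edgeR). The groups of the other theca markers overlapped.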

Additional observations from a re-analysis of the deposited data

How the results depend on the processing

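The count of called trafficking genes was 0 of 39, and that of other pathway genes 0 of 97, under all 16 alternatives: RLE, upper-quartile or no composition factors, no count filter, at least 50 counts in 3 samples, a replicate block, each library left out, both TG replicate 2 and WT replicate 3 left out, DESeq2, limma-voom and limma-trend on log2(FPKM + 1). Over all genes the count was 149 and ranged from 119 to 203. With the replicate block 159 genes were called over all. Same-numbered libraries correlated at 0.32, 0.12 and 0.093 in their deviations from group means, and every library correlated best with the other of its number, but the labels give no pairing. Among the 39 genes an unadjusted p under 0.05 was reached by at most 3 under any alternative, drawn from Cltb, Dnm1, Snx9, Epn1 and Ehd4. The log2 fold change of 17 of the 39 genes and the difference of 7 of 15 shares kept their sign throughout. Signs of the others, none called, changed as follows, and the cause was not tested. Upper-quartile factors gave Ap2a1 0.0040 and Dnm2 0.013, no factors Ap2a1 0.00053 and Dnm2 0.0094, RLE Dnm2 0.00061, DESeq2 Dnm2 0.00065, limma-voom Ap2a2 -0.0011 and Dnm2 0.0019, limma-trend Ap2a1 0.0019, Dnm2 0.0047 and Dnm3 -0.022. No filter gave Ap2a2 -0.00075, the 50-count filter Ap2a2 -0.0027 and Eps15 -0.00046, and the replicate block Ap2a2 -0.0011 and Dnm2 0.0017. Without TG replicate 2 and WT replicate 3 the values were Ap2a1 0.050, Dnm2 0.074, Eps15 -0.052, Arrb1 0.033, Arrb2 0.065, Ehd2 0.094, Ehd3 -0.11, Hgs 0.045, Appl1 -0.031, and, as shares in percentage points, Arrb1 -0.76, Bin1 0.013 and Ehd3 -0.15. On CPM the Dnm3 share gave 0.22. Leaving out each library in turn gave Ap2a1 -0.052 to 0.042, Ap2a2 -0.039 to 0.045, Ap2m1 -0.074 to 0.016, Ap2s1 -0.058 to 0.087, Dnm1 -0.025 to 0.43, Dnm2 -0.048 to 0.066, Dnm3 -0.046 to 0.20, Amph -0.0075 to 0.43, Bin1 -0.030 to 0.076, Sh3gl1 -0.021 to 0.10, Snx9 -0.21 to 0.077, Eps15 -0.044 to 0.025, Arrb1 -0.18 to 0.026, Arrb2 -0.17 to 0.028, Ehd2 -0.092 to 0.075, Ehd3 -0.11 to 0.22, Snx27 -0.071 to 0.019, Vps35 -0.095 to 0.017, Vps29 -0.033 to 0.052, Eea1 -0.019 to 0.071, Hgs -0.10 to 0.018 and Appl1 -0.00031 to 0.13. For shares the ranges were Ap2a1 -0.75 to 0.59, Arrb1 -1.43 to 2.12, Appl1 -2.42 to 1.51, Dnm2 -1.71 to 0.41, Dnm3 -0.68 to 0.27 and Ehd1 -0.99 to 0.83 percentage points. Amph has no value with the 50-count filter or limma-trend, being below both filters. It has the widest interval, and depth limits its value.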
